A study of Mus musculus with 7 samples.

Results

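The genes described here are 10 genes of the MHC class I route of antigen presentation, out of 32285 genes counted in mouse utricle explants. They comprise 5 class I heavy chain genes (H2-K1, H2-D1, H2-Q4, H2-Q7 and H2-T23), the light chain gene B2m, the peptide transporter genes Tap1 and Tap2, and the immunoproteasome genes Psmb8 and Psmb9. All 10 were found in the counts and passed the filter on low counts. The genes were selected on earlier results of the same contrast, Gent+Fos OE against Gent. Their differences in it, and their calls in the test over all genes, are therefore given only as a description.

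Every nucleated cell can show fragments of its own proteins on MHC class I molecules. The proteasome cuts proteins into peptides, the TAP transporter carries the peptides into the endoplasmic reticulum, and the peptide loading complex places them on a heavy chain bound to beta-2 microglobulin. Interferons raise most of these genes, exchange the catalytic subunits of the constitutive proteasome for those of the immunoproteasome, and act on class I promoters through IRF factors and NLRC5.

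Utricles, vestibular sensory organs of the inner ear, were taken from wild-type C57BL/6J mice at postnatal day 2, cultured as whole explants, damaged with 2 mM gentamicin for 24 h, an aminoglycoside toxic to hair cells, and collected 5 days after the injury. In Gent+Fos OE, 4 libraries came from explants that also received an AAV-PHP.eB vector, in which the CMV promoter, active in many cell types, drives mouse Fos, for 48 h, and in Gent, 3 libraries came from explants labelled with gentamicin only. Each library was made from 12 pooled utricles. The labels give the Gent explants gentamicin alone, but the deposited names of their count tables, unlike those of Gent+Fos OE, carry the letters sh, and the study also used a Fos shRNA vector and an EGFP control vector. The study describes its controls for overexpression both as gentamicin controls and as explants given the EGFP vector. Whether the Gent explants received either vector is not settled by the labels, and every fold change here is relative to these libraries as labelled. The comparison asks which transcripts differ when Fos, an AP-1 transcription factor subunit, is overexpressed after the injury.

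Library totals ran from 27879889 to 34335214 counts. Fos itself was at 151, 151, 167 and 149 CPM (counts per mega-count of the library, after TMM normalization) in Gent+Fos OE replicates 1 to 4 and at 39.5, 40.6 and 34.6 CPM in Gent replicates 1 to 3. It rose by 2.01 on the log2 scale (SE 0.13, adjusted p = 0.000142 in edgeR's quasi-likelihood test, adjusted by the Benjamini-Hochberg method), with reads of the vector and of the endogenous gene not told apart. One library, Gent replicate 2, departed most from the rest with gene length. Its log2 CPM relative to the 7-library mean had a Spearman's rho of -0.52 with length over genes, which are no independent replicates. The rho was 0.17 and -0.22 in Gent replicates 1 and 3, and 0.36, 0.33, 0.24 and 0.15 in Gent+Fos OE replicates 1 to 4. It was thus positive in all Gent+Fos OE libraries and mixed in Gent, so the trend with length partly followed the groups. Hair cell and supporting cell markers of the utricle were present in every library, at sums of 749 to 1106 CPM over 12 hair cell genes and 2353 to 3596 CPM over 12 supporting cell genes.

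Of the 10 genes, 9 lie in the MHC region of chromosome 17, between positions 33996017 and 36032855 of mm10, and B2m lies at chr2:122147686-122153083. The proximal promoters of 4 heavy chain genes and of B2m are printed here because they show the shared regulatory letters of the class that the counts describe. Sequences are from RefSeq on GRCm38.p6, which is mm10, 5′ to 3′ on the strand of each gene. Capitals mark the kappaB motif, the interferon-stimulated response element (ISRE, TTTCNNTTTC) or, in heavy chains, its class I core TTTCACTT, the CRE half-site TGACG and the Y box ATTGG or its reverse CCAAT.
H2-K1: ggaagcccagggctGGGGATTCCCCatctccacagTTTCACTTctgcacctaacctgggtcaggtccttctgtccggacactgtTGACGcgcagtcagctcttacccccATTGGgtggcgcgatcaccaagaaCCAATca
H2-D1: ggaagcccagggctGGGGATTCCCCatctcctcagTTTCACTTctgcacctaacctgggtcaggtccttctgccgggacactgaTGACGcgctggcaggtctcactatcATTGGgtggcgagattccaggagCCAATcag
H2-Q4: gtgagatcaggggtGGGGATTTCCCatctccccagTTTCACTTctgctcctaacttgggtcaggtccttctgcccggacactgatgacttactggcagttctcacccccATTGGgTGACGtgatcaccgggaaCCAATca
H2-Q7: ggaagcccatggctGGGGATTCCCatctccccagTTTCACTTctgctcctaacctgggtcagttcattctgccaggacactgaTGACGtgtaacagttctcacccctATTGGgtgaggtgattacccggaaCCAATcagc
B2m: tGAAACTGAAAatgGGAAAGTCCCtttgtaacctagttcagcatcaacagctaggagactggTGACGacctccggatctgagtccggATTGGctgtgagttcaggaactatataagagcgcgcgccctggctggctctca

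The stretches lie at chr17:34000333-34000472 (H2-K1, minus strand), chr17:35262909-35263048 (H2-D1, plus strand), chr17:35379429-35379568 (H2-Q4, plus strand), chr17:35439008-35439147 (H2-Q7, plus strand) and chr2:122147547-122147686 (B2m, plus strand). The 4 heavy chain stretches have the same order of letters, kappaB, class I core, CRE half-site and Y box, except that in H2-Q4 the half-site follows the first Y box. The kappaB motif begins 21 bases before the core in H2-K1, H2-D1 and H2-Q4 and 20 bases before it in H2-Q7. The B2m stretch carries an ISRE on the opposite strand in front of its kappaB motif.

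Windows of 300 bases around the start were at hand for 9 of the 10 genes, all but Tap2. Searched on both strands, the class I core was in the windows of H2-K1, H2-D1, H2-Q4 and H2-Q7 and in 1.6% of 32851 promoter windows, and the core was chosen after these windows had been read. Genes with several windows were counted once. The kappaB motif was in the windows of 5 of the 9 genes against 8.46% of all windows, the Y box in 8 against 37.4% and the CRE half-site in 7 against 20.8%. The genes with a kappaB motif were B2m and the heavy chain genes whose similar stretches are printed above. The full ISRE was in the windows of B2m and H2-T23 against 3.44%. The AP-1 motif TGANTCA is read by Fos with a Jun partner. It was in the windows of 0 of the 9 genes and in 7.81% of all windows. This says only that these letters are not in the windows of the 9 genes. The windows of Tap1 and Psmb9, which are transcribed away from each other, overlap, so their Y box and CRE half-site are the same letters.

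All 10 genes were lower with Fos overexpression, in every Gent+Fos OE library against every Gent library. The level in Gent+Fos OE was between 21.6% (H2-Q7) and 70.2% (Tap2) of that in Gent, and the median log2 fold change was -0.86, against 0.00 over the 17155 genes tested. Groups did not overlap in this direction in 12.2% of tested genes, and 50.1% had a log2 fold change under 0. Called at an adjusted p under 0.01 and a log2 fold change under -0.25, 3 of the 10 genes (H2-Q7, H2-Q4 and Psmb8) were lower, where 0.280% of tested genes were, and 0 were higher, where 0.134% were. At an adjusted p under 0.05 and the same fold limit, 7 of 10 were lower, against 1.19% of tested genes, with H2-T23, Tap2 and Psmb9 outside. DESeq2 put 8 of 10 under the 0.01 limit, where 1.73% of the genes it tested were. Because the genes were selected on this contrast, nothing is read from these counts.

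The count of 3 moved with single libraries. It was 5 without Gent replicate 2 (H2-K1 and B2m were added), 1 without Gent+Fos OE replicate 1, and 0 without Gent+Fos OE replicate 2, 3 or 4 or without Gent replicate 3. Over all tested genes, 93 were called lower without Gent replicate 2, 15 without Gent+Fos OE replicate 1 and 3 to 15 in the other fits named. The median log2 fold change was -0.88 without Gent replicate 2 and -0.81 after the length trend of every library was removed. In bulk RNA of whole explants, fewer cells that express a gene and less RNA of it per cell cannot be told apart.

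**Figure D1:**
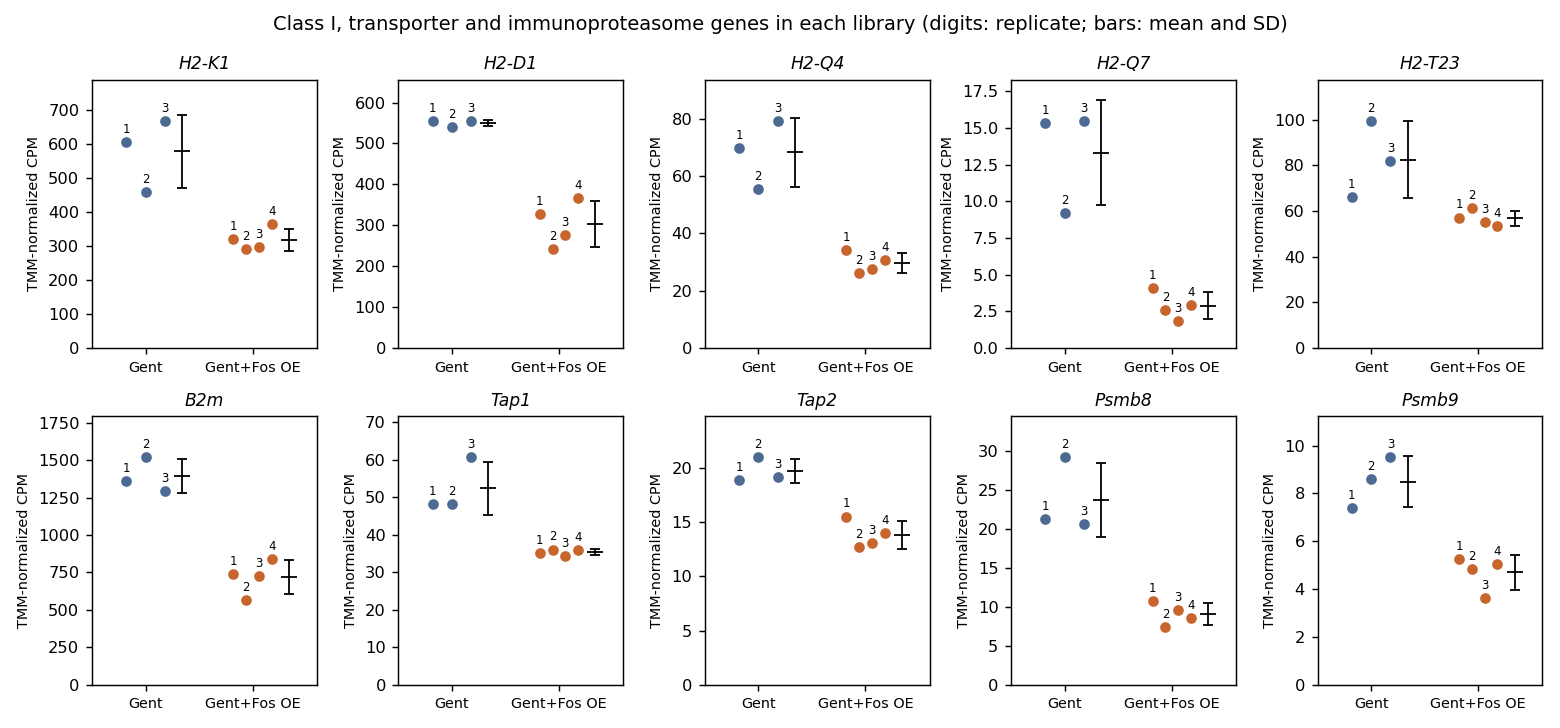
TMM-normalized CPM (y axis, from 0) of the 10 genes in the 3 Gent and 4 Gent+Fos OE libraries, with replicate numbers at the points and black bars for mean and SD. In each panel the Gent+Fos OE points lie below the Gent points, with the widest relative gap in H2-Q7 (2.87 against 13.3 CPM on average) and a narrow one in H2-T23 (56.8 against 82.5 CPM).

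H2-K1 and H2-D1 encode the classical heavy chains of this strain, which present peptides to CD8 T cells. H2-K1 (chr17:33996017-34000347) was at 319, 291, 296 and 364 CPM in Gent+Fos OE replicates 1 to 4 and at 606, 459.7 and 668 CPM in Gent replicates 1 to 3. The lowest Gent value was that of replicate 2, still above all Gent+Fos OE values. Its log2 fold change was -0.86 (SE 0.15), or -1.01 without Gent replicate 2.

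H2-D1 (chr17:35262730-35267499) was at 328, 241, 277 and 367 CPM in Gent+Fos OE and at 556, 541 and 555 CPM in Gent. The Gent libraries were close together (550 ± 7.98 CPM, SD, n = 3), and the Gent+Fos OE libraries were more spread (304 ± 55.5 CPM, n = 4). The log2 fold change was -0.86 (SE 0.15), the same as for H2-K1 at the digits given. Within a library, H2-D1 was at 83.0% to 103% of H2-K1 in CPM in Gent+Fos OE and at 83.0% to 118% in Gent, so this ratio overlapped between the groups.

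H2-Q4 and H2-Q7 belong to the Q region of nonclassical heavy chains, which vary little between individuals. H2-Q4 (chr17:35379617-35385290) was at 34.29, 26.3, 27.5 and 30.6 CPM in Gent+Fos OE and at 69.9, 55.4 and 79.3 CPM in Gent. The log2 fold change was -1.20 (SE 0.15), with each Gent value well above the highest Gent+Fos OE value. Overlap with the exons of Gm11131 covers 19.1% of the exonic bases of H2-Q4, and reads in that overlap were not counted.

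H2-Q7 (chr17:35439155-35443773), a source of the Qa-2 antigen, had the largest fold of the 10. Its raw counts were 125, 85, 59 and 83 in Gent+Fos OE and 447, 286 and 536 in Gent, which are 4.07, 2.60, 1.87 and 2.96 CPM against 15.3, 9.17 and 15.5 CPM. Gent replicate 2 lay apart from the other Gent libraries here too. The log2 fold change was -2.21 (SE 0.28), or -2.43 without that library.

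H2-T23 encodes Qa-1, whose peptide is often the leader of other class I chains and which is read by CD94/NKG2 receptors. The gene (chr17:36029773-36032855) was at 57.2, 61.3, 55.3 and 53.3 CPM in Gent+Fos OE and at 66.0, 99.6 and 81.8 CPM in Gent. The groups came within a few CPM of each other, and the highest Gent value was that of replicate 2. The log2 fold change was -0.54 (SE 0.15), or -0.39 without Gent replicate 2.

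The heavy chain genes resemble each other, and reads that map to several places were left out. Of the stretches of 100 bases in their transcripts, 10.4% (H2-K1), 12.2% (H2-D1), 18.6% (H2-Q4), 12.3% (H2-Q7) and 6.79% (H2-T23) also occur in a transcript of another gene. Of the stretches of 50 bases these were 22.9%, 27.6%, 40.1%, 27.5% and 20.2%. How far this moved the levels was not tested, so the counts of these genes are uncertain. B2m shares none at either length. Of the other 4 genes, 13.8% (Psmb9), 8.66% (Tap1), 7.31% (Psmb8) and 3.69% (Tap2) of the stretches of 100 bases are shared.

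B2m encodes beta-2 microglobulin, the light chain without which class I heavy chains do not reach the surface. The gene was at 739, 567, 727 and 841 CPM in Gent+Fos OE and at 1360.3, 1519 and 1297 CPM in Gent, and per kilobase of transcript it had the highest level of the 10 genes in every library. The difference between the groups was far wider than the spread in either, with a log2 fold change of -0.95 (SE 0.15), or -0.89 without Gent replicate 2. Per kilobase of transcript, B2m stood to the sum of the 5 heavy chain genes at 2.94 to 3.55 in Gent+Fos OE and at 2.99 to 4.16 in Gent, which overlap.

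Tap1 and Tap2 encode the subunits that together form the peptide transporter. Tap1 (chr17:34187553-34197225) was at 35.01, 36.0, 34.32 and 36.0 CPM in Gent+Fos OE and at 48.2, 48.2 and 60.6 CPM in Gent. The Gent+Fos OE libraries hardly differed among themselves (35.3 ± 0.823 CPM, n = 4), and Gent replicate 3 was above the other Gent libraries. The log2 fold change was -0.57 (SE 0.13). Tap2 (chr17:34203527-34216321) was at 15.5, 12.7, 13.0 and 14.045 CPM in Gent+Fos OE and at 18.9, 21.0 and 19.2 CPM in Gent, a log2 fold change of -0.51 (SE 0.14), the smallest of the 10. The ratio of Tap1 to Tap2 per kilobase was 1.56 to 1.95 in Gent+Fos OE, against 1.59 to 2.18 in Gent, so the proportion of the transporter subunits overlapped. Overlapping exons take 18.5% of Tap2 (Gm15821 and Gm20496) and 3.87% of Tap1 (Psmb9).

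Psmb8 and Psmb9 encode the beta5i and beta1i subunits, which replace Psmb5 and Psmb6 in the immunoproteasome and change the ends of the peptides it makes. Psmb8 (chr17:34197721-34201454) was at 10.8, 7.47, 9.53 and 8.52 CPM in Gent+Fos OE and at 21.3, 29.2 and 20.6 CPM in Gent. Every Gent value was above 20 CPM and every Gent+Fos OE value under 11 CPM, with a log2 fold change of -1.38 (SE 0.18), or -1.21 without Gent replicate 2. Psmb9 (chr17:34181987-34187764) was at 5.28, 4.84, 3.61 and 5.06 CPM in Gent+Fos OE and at 7.39, 8.59 and 9.51 CPM in Gent. It rested on 114 to 162 raw counts in Gent+Fos OE against 216 to 329 in Gent, with a log2 fold change of -0.86 (SE 0.19). Exons of Gm20496 overlap 14.7% of Psmb8 and those of Tap1 5.79% of Psmb9.

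**Figure D2:**
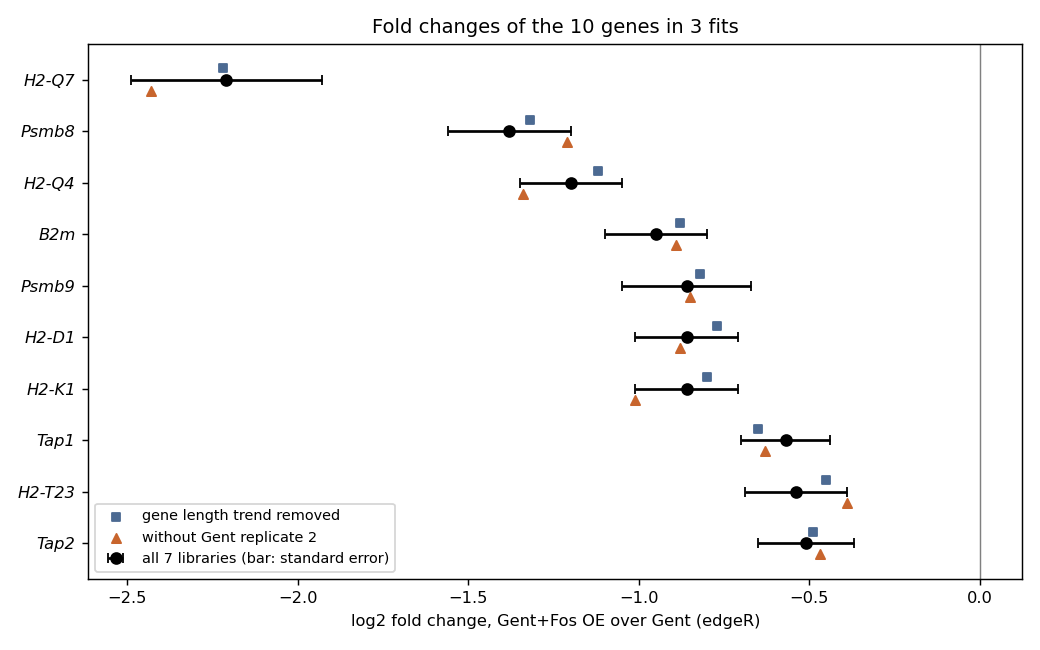
Log2 fold changes (x axis, Gent+Fos OE over Gent, edgeR) of the 10 genes with all 7 libraries (black, bars for the standard error), with the gene length trend removed (squares) and without Gent replicate 2 (triangles). All values lie left of 0, from -2.43 (H2-Q7 without that library) to -0.39 (H2-T23 without it).

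Set per kilobase, the levels in Gent ranked in the order B2m (1619 CPM per kilobase), H2-D1 (213), H2-K1 (197), H2-T23 (28.5), H2-Q4 (26.3), Tap1 (9.56), Psmb8 (7.005), Tap2 (5.21), H2-Q7 (3.12) and Psmb9 (2.32). H2-D1 and H2-K1 did not differ beyond their spread (213 ± 3.09 and 197 ± 36.4), nor did H2-T23 and H2-Q4 (28.5 ± 5.81 and 26.3 ± 4.63) or H2-Q7 and Psmb9 (3.12 ± 0.843 and 2.32 ± 0.289). In Gent+Fos OE the order was B2m (835), H2-D1 (118), H2-K1 (108), H2-T23 (19.7), H2-Q4 (11.4), Tap1 (6.45), Tap2 (3.66), Psmb8 (2.68), Psmb9 (1.28) and H2-Q7 (0.674).

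Psmb8 and Tap2 changed places between the groups. Psmb8 was at 1.20 to 1.55 times the Tap2 level per kilobase in the Gent libraries and at 0.656 to 0.817 times in Gent+Fos OE. H2-Q7 was at 0.916 to 1.78 times Psmb9 in Gent and at 0.444 to 0.662 times in Gent+Fos OE. These orders follow from the unequal folds of the genes and were given no test.

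The heavy chain genes differed between the groups to unequal extents. H2-Q7 was at 1.28%, 0.895%, 0.632% and 0.813% of the CPM of H2-K1 in Gent+Fos OE replicates 1 to 4 and at 2.52%, 1.99% and 2.32% in Gent replicates 1 to 3. H2-Q4 was at 8.41% to 10.7% of H2-K1 in Gent+Fos OE and at 11.5% to 12.1% in Gent. Neither ratio overlapped between the groups, while that of H2-D1 to H2-K1 did.

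The catalytic subunits of the immunoproteasome (Psmb8, Psmb9 and the non-selected Psmb10) were set against all 6 catalytic subunits, as CPM per kilobase. Their share was 10.3%, 9.70%, 8.99% and 10.02% in Gent+Fos OE replicates 1 to 4 and 14.4%, 10.6% and 14.3% in Gent replicates 1 to 3. All Gent+Fos OE libraries were below all Gent libraries, but Gent replicate 2 lay close to them. The difference in means was -3.32 percentage points, and -4.57 without that library. It has no test, since the choice of Psmb8 and Psmb9 bears on its direction.

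In each matched pair of subunits the mean ratio was lower in Gent+Fos OE. Psmb8 was at 2.37% to 3.31% of Psmb5 per kilobase in Gent+Fos OE and at 4.20% to 5.90% in Gent, and Psmb10 at 75.2% to 91.7% of Psmb7 against 106% to 123%. Psmb9 was at 1.81% to 3.05% of Psmb6 in Gent+Fos OE and at 2.27% to 3.91% in Gent, where the groups overlapped (2.51% ± 0.517, n = 4, and 3.23% ± 0.852, n = 3). Whether the pairs differ from each other was not tested.

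**Figure D3:**
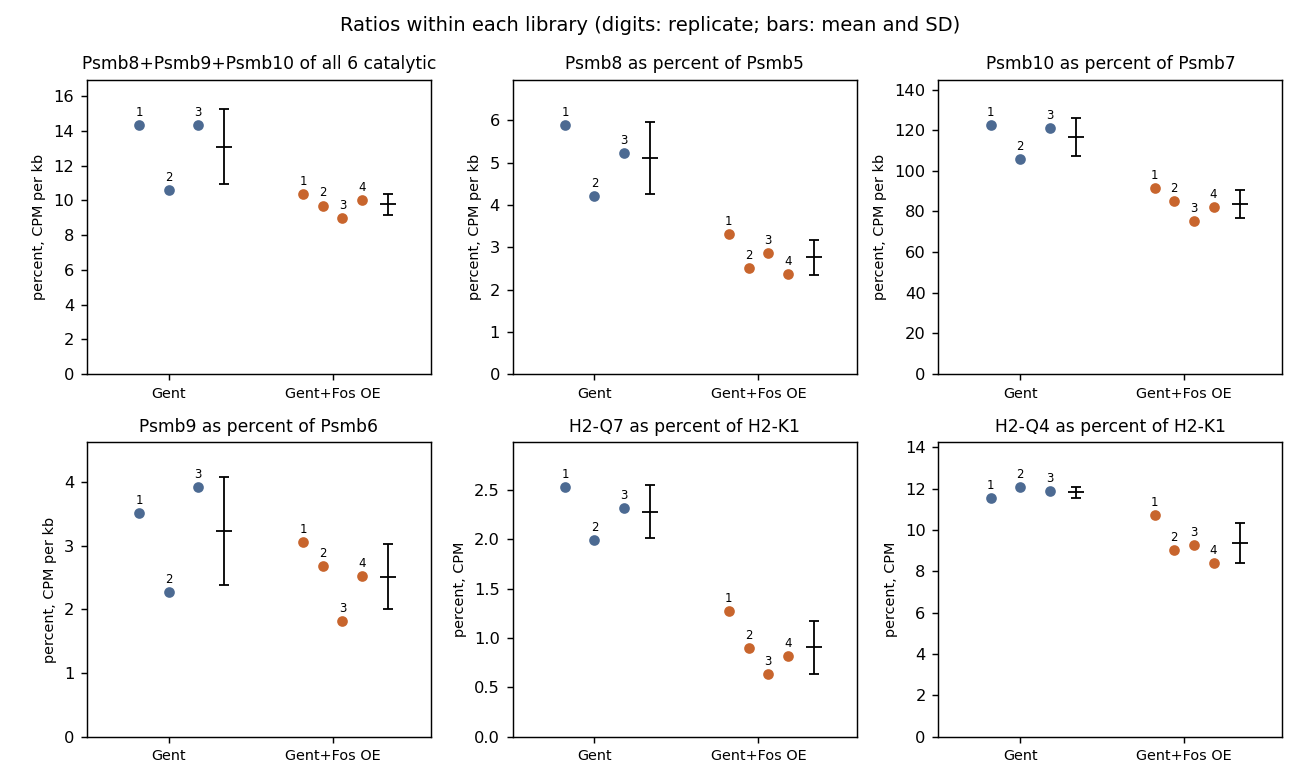
Ratios within each library in percent (y axes, from 0), as CPM per kilobase for proteasome subunits and as CPM for heavy chains, with replicate numbers at the points and black bars for mean and SD. The groups are separate in each panel but that of Psmb9 over Psmb6, and Gent replicate 2 is the lowest Gent point in all panels but that of H2-Q4 over H2-K1.

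Further genes of the route were taken from lists, with the test over all genes applied to them. Among 6 partners of the immunoproteasome, Psmb10 fell at an adjusted p under 0.05 and 0 rose, in edgeR and in limma-voom, and DESeq2 passed 3 lower. The edgeR count was 4 without Gent replicate 1, 2 without Gent replicate 2 and otherwise 0 or 1 with a library left out. The share of all tested genes passing 0.05 moved with the libraries too. Lower genes made up 5.25%, 1.64% and 0.695% without Gent replicates 1 to 3 and 0.426%, 0.521%, 0.337% and 0.916% without Gent+Fos OE replicates 1 to 4. Higher genes made up 4.54%, 1.26% and 0.222% and, in the same order, 0.195%, 0.243%, 0.183% and 0.384%. Every count given here with a library left out is to be read against the share of the same fit. Psmb10, the beta2i subunit, was at 23.3, 21.98, 22.2 and 27.7 CPM in Gent+Fos OE and at 38.0, 48.97 and 43.3 CPM in Gent. It fell by 0.87 on the log2 scale (SE 0.14, edgeR adjusted p = 0.0136), and leaving out Gent+Fos OE replicate 1, 2 or 3 or Gent replicate 3 took the adjusted p to between 0.0522 and 0.0759. Psme1 and Psme2, the PA28 cap of the proteasome, had log2 fold changes of -0.70 (SE 0.17, edgeR adjusted p = 0.0615) and -0.63 (SE 0.18, edgeR adjusted p = 0.102). The 3 with the highest levels were Psme4 (0.34, SE 0.16), Pomp (-0.46, SE 0.16), the chaperone of proteasome assembly, and Psme3 (-0.06, SE 0.11).

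Over all tested genes, 13.4% had an unadjusted p under 0.05 in edgeR with lower values and 11.1% with higher values, and the counts at that limit are to be read against these shares. None of the 3 constitutive catalytic subunits passed in edgeR, all 3 had an unadjusted p under 0.05 and lower values, and DESeq2 and limma-voom passed 0 at 0.05. Psmb5, Psmb6 and Psmb7 had log2 fold changes of -0.55 (SE 0.21), -0.56 (SE 0.19) and -0.40 (SE 0.16). Without Gent replicate 2, whose values for them were the highest, these were -0.20, -0.27 and -0.23. Of 11 further subunits of the proteasome core, 0 passed in edgeR, DESeq2 or limma-voom, 9 had an unadjusted p under 0.05 and lower values, and their median log2 fold change was -0.41, or -0.24 without Gent replicate 2. Without Gent replicate 1, 2 of the constitutive and 3 of the further subunits passed in edgeR as lower.

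Of 16 tested genes of the peptide loading complex and of peptide trimming, 0 passed at 0.05 in edgeR, with 3 lower and 1 higher at an unadjusted p under 0.05. Limma-voom also passed 0, and DESeq2 passed 1 lower. Their median log2 fold change was -0.05. Tapbp, which encodes tapasin, the bridge between TAP and the heavy chain, was at 267, 257, 240.0 and 229 CPM in Gent+Fos OE and at 311, 372 and 369 CPM in Gent. Its log2 fold change was -0.50 (SE 0.12, edgeR adjusted p = 0.0703), and the adjusted p was 0.0436 without Gent replicate 2 and 0.0356 without Gent replicate 1. Without the latter, Lnpep, a peptide-trimming aminopeptidase named here after its values were seen, also passed, as higher (log2 fold change 1.19, edgeR adjusted p = 0.0303, against 0.74 and 0.175 with all libraries). Exons of Gm19412 and Zbtb22 overlap 29% of Tapbp. The 3 with the highest levels were chaperones of many other proteins: Calr (-0.27, SE 0.11), Pdia3 (-0.06, SE 0.11) and Hspa5 (-0.13, SE 0.13).

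Among the other class I and class I-like heavy chains, 24 of 31 listed genes were in the annotation, 16 were tested, and 2 fell in edgeR and limma-voom and 3 in DESeq2. H2-Q6, a Q region gene whose transcripts share stretches with those of H2-Q7, was at 6.06, 3.52, 5.41 and 5.45 CPM in Gent+Fos OE and at 18.6, 10.7 and 32.3 CPM in Gent. It fell by 2.01 (log2, SE 0.33, edgeR adjusted p = 0.0136), and the adjusted p was 0.0508 without Gent+Fos OE replicate 1 and 0.0628 without replicate 3. Its promoter window also held the class I core.

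H2-T22, the T region gene whose product is bound by some gamma delta T cells, was at 43.4, 35.8, 45.8 and 47.8 CPM in Gent+Fos OE and at 61.8, 83.1 and 71.4 CPM in Gent. It fell by 0.74 (log2, SE 0.15, edgeR adjusted p = 0.0353), which ranged from 0.0207 to 0.115 with single libraries left out, and was over 0.05 without any of the Gent+Fos OE libraries or without Gent replicate 3. Exons of A930015D03Rik overlap 29.4% of it. The class I-like genes Fcgrt, the neonatal Fc receptor, and Mr1, which presents vitamin metabolites, were among the 3 with the highest levels and had log2 fold changes of -0.36 (SE 0.16) and 0.21 (SE 0.12).

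Of 20 regulators of class I transcription, 1 fell and 0 rose at 0.05 in edgeR and limma-voom, while DESeq2 passed 7 lower and 0 higher. The edgeR count was 4 lower without Gent replicate 1 or 2 and 1 without any other library. Irf7, an interferon-induced IRF factor, was at 25.3, 20.9, 19.7 and 21.2 CPM in Gent+Fos OE and at 62.8, 71.9 and 77.8 CPM in Gent. It fell by 1.70 (log2, SE 0.14, edgeR adjusted p = 0.00056), which stayed at or under 0.00717 with each library left out.

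Nlrc5, the class I transactivator, was at 7.69, 8.67, 8.52 and 10.12 CPM in Gent+Fos OE and at 16.6, 10.096 and 14.9 CPM in Gent. Its lowest Gent value, that of replicate 2, reached into the range of Gent+Fos OE. The log2 fold change was -0.66 (SE 0.19, edgeR adjusted p = 0.102), and -0.85 (edgeR adjusted p = 0.0154) without that library. Irf1 was at -0.49 (SE 0.14, edgeR adjusted p = 0.0995). The regulators with the highest levels were Stat3 (0.13, SE 0.13) and Nfkb1 (-0.13, SE 0.12), a kappaB-binding factor.

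**Figure D4:**
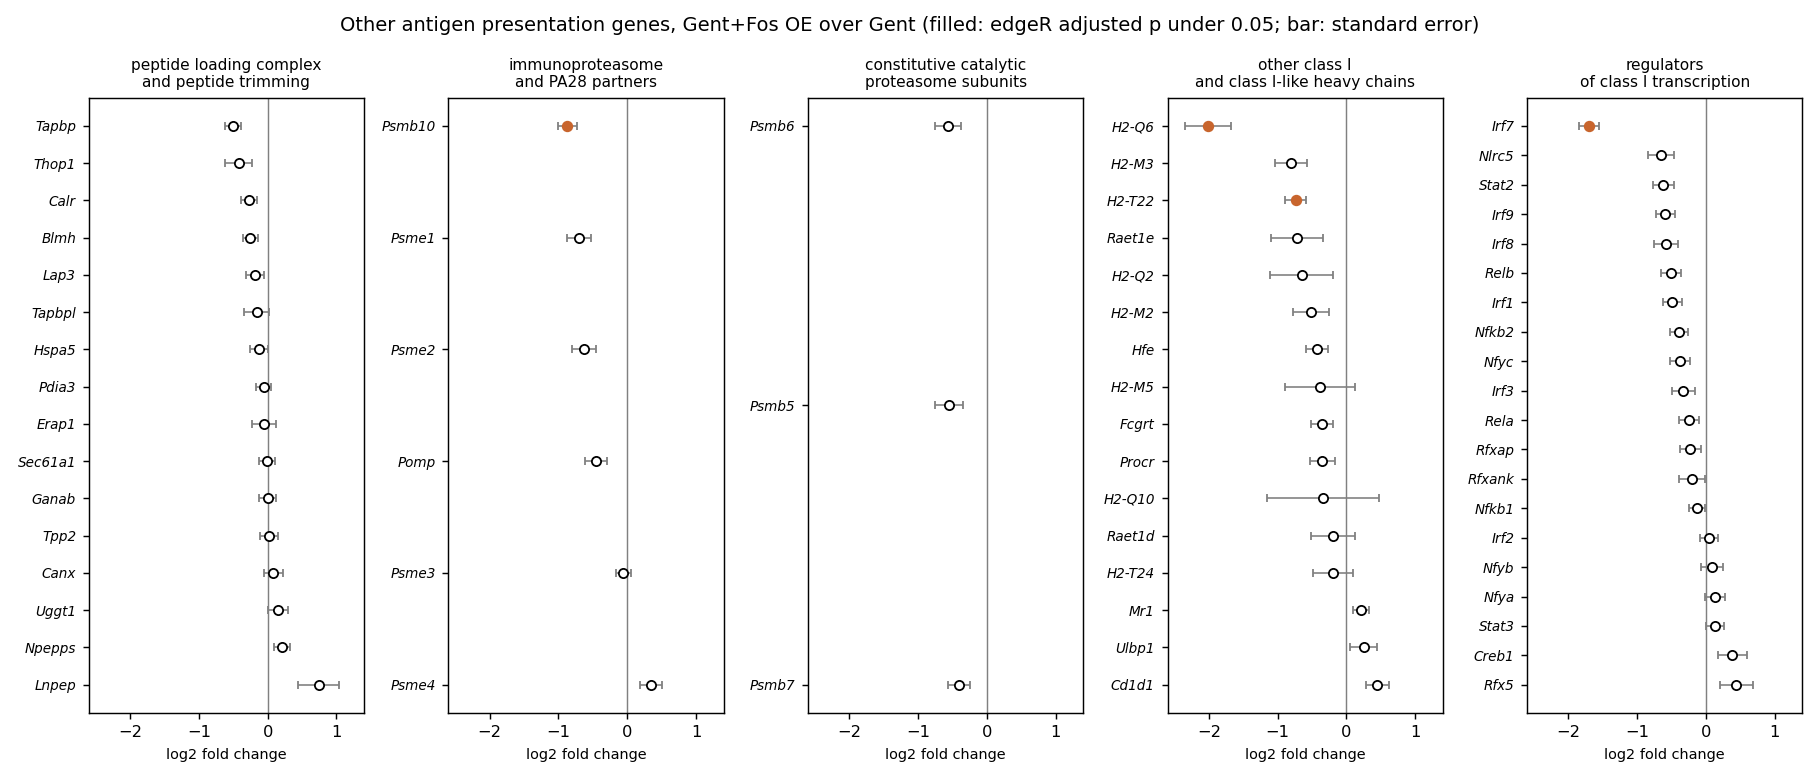
Log2 fold changes (x axes, Gent+Fos OE over Gent) of the other antigen presentation genes that were tested, in 5 lists, with bars for the standard error and filled points for an edgeR adjusted p under 0.05. The filled points are Psmb10, H2-Q6, H2-T22 and Irf7, all left of 0, and the peptide loading list lies around 0 with a median of -0.05.

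Interferon genes themselves were scarcely counted. Ifng, Ifna4, Ifna5, Ifnl2, Ifnl3 and Ifne had 0 counts in all 7 libraries. By counting error alone this allows up to 3 counts in a library, or 0.0874 to 0.108 CPM, if counts are independent. Mates of a read pair were each counted, so the limit is higher than that. Ifnb1 was between 0 and 0.224 CPM. Ifnk, the only listed interferon that passed the filter on low counts, was at 0.0919 to 0.499 CPM in Gent+Fos OE and 0 to 0.342 CPM in Gent. Its log2 fold change was 0.87 (SE 0.88, edgeR adjusted p = 0.554). Of 13 tested interferons, receptors and kinases, 0 passed in edgeR or limma-voom at 0.05, with 5 lower and 1 higher at an unadjusted p under 0.05, and DESeq2 passed 2 lower and 1 higher.

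A list of receptors that read class I, together with T cell receptor parts and granule proteins of lymphocytes, was largely near the floor as well. Of its 20 genes 9 had 0 counts in every library, among them Cd8b1, Klrc1 and Nkg7, and Cd8a was between 0 and 0.326 CPM. Pirb, an inhibitory receptor of myeloid cells for class I, was the highest of the list, at 22.2 to 44.7 CPM in Gent+Fos OE and 43.5 to 64.5 CPM in Gent, which overlap, and Gzmb, a granule protease also named after its values were seen, followed at 0.285 to 7.82 CPM over all libraries. Of the 4 tested, 0 passed in edgeR, DESeq2 or limma-voom, and 1 was lower at an unadjusted p under 0.05.

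MHC class II molecules present peptides from outside the cell. Of 7 tested genes of the class II list, 6 had a log2 fold change under 0, against 50.1% of all tested genes, and only Ciita was above. Cd74, the invariant chain, was at 9.48, 8.94, 8.58 and 7.56 CPM in Gent+Fos OE and at 31.0, 25.5 and 31.3 CPM in Gent. It fell by 1.76 (log2, SE 0.14, edgeR adjusted p = 0.000574), at or under 0.0081 with each library left out. Ciita, the class II transactivator, rose from 0.59 ± 0.194 CPM (n = 3) to 2.89 ± 0.461 CPM (n = 4), by 2.29 on the log2 scale (SE 0.34, edgeR adjusted p = 0.00981), with up to 0.0439 when a library was left out. The other 5 of 7 tested class II genes did not pass.

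At the 0.05 limit 0.665% of tested genes were higher in edgeR. DESeq2 passed 3.92% of its tested genes as lower and 3.63% as higher, and limma-voom 1.15% and 0.723%. The counts given for each list are to be read against these shares.

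Markers of other cells were read from the same libraries. Of 20 leukocyte and macrophage markers, 18 had a log2 fold change under 0, 2 fell at an adjusted p under 0.05 (Cd14, by 1.15, edgeR adjusted p = 0.00847, and C1qb, by 0.89, edgeR adjusted p = 0.0458), and 0 rose. Without single libraries, the adjusted p of Cd14 reached 0.0472 and that of C1qb 0.162, and C1qb was over 0.05 without any 1 of the Gent+Fos OE libraries. Their median was -0.65, or -0.56 without Gent replicate 2, and none was at 0 counts. DESeq2 passed 12 of the 20 as lower and limma-voom 2, and the edgeR count was 10 without Gent replicate 1, 4 without Gent+Fos OE replicate 4, 3 without Gent replicate 2 or 3 and 1 without Gent+Fos OE replicate 1, 2 or 3. Their summed level was 3552 to 5548 CPM in Gent+Fos OE and 5854 to 8032 CPM in Gent.

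In percent of the Gent mean, this sum was 67.6, 51.1, 57.3 and 79.7 in Gent+Fos OE replicates 1 to 4, and that of the 10 class I genes was 55.5, 44.8, 51.8 and 61.8. Both sums were lowest in replicate 2 and highest in replicate 4. B2m, H2-K1 and H2-D1 made up 87.9% to 91.3% of the class I sum and Lyz2 54.5% to 59.2% of the leukocyte sum. Without Lyz2 the leukocyte sum kept this order, at 68.2, 49.8, 58.6 and 81.3 percent of its Gent mean in Gent+Fos OE replicates 1 to 4. In Gent replicates 1 to 3 it was at 104, 108 and 87.7 percent. With equal weight for each gene, as the mean difference in log2 CPM from its own 7-library mean, the class I genes were at -0.26, -0.53, -0.53 and -0.33 in Gent+Fos OE replicates 1 to 4 and the leukocyte markers at -0.17, -0.54, -0.35 and 0.09. By that measure the class I genes were highest in replicate 1 and the leukocyte markers in replicate 4. In Gent the class I sum was at 99.3, 100.0 and 101 percent while the leukocyte sum ranged from 84.1 to 115. The part of leukocyte number in the class I values was not tested.

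Of 6 melanocyte markers 5 (Pmel, Tyr, Tyrp1, Dct and Mlana) fell at an adjusted p under 0.05 in edgeR, DESeq2 and limma-voom, with sums of 45.7 to 50.9 CPM in Gent+Fos OE and 87.6 to 124 CPM in Gent. The edgeR count was 2 (Tyrp1 and Dct) without Gent+Fos OE replicate 1 or 3, 3 without Gent+Fos OE replicate 2 or 4, 4 without Gent replicate 2 or 3 and 5 without Gent replicate 1.

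Hair cell and supporting cell sums were at 110.0 to 138 and 111 to 132 percent of the Gent mean, against 93.3 to 112 and 86.6 to 110.0 in Gent. Their members differed in direction, with 5 of 12 hair cell genes (median log2 fold change 0.16) and 4 of 11 tested supporting cell genes (median 0.06) under 0. No hair cell gene passed at 0.05 in edgeR, where 5 were higher at an unadjusted p under 0.05, while limma-voom passed 1 and DESeq2 3 as higher. The edgeR count was 3 higher without Gent replicate 2, 2 without Gent replicate 1 and 1 without Gent replicate 3. Of the supporting cell genes, Otog rose by 1.25 (log2, SE 0.18, edgeR adjusted p = 0.00851) and Tectb fell by 1.39 (log2, SE 0.27, edgeR adjusted p = 0.0348, up to 0.104 with a library left out).

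Sums of 12 endothelial and 11 mesenchymal markers overlapped between the groups, at 80.3 to 106 and 69.5 to 105 percent against 85.9 to 121 and 85.3 to 126. Of the endothelial genes, Flt1 rose by 2.04 (log2, SE 0.38, edgeR adjusted p = 0.0281), from 0.318 to 0.821 CPM in Gent to 2.02 to 2.66 CPM in Gent+Fos OE, and the adjusted p was between 0.0566 and 0.108 without any 1 of the Gent+Fos OE libraries or without Gent replicate 3. DESeq2 passed 2 endothelial genes as higher, and 0 mesenchymal genes passed in any of these tools, with 2 lower at an unadjusted p under 0.05. These marker genes were named after their values were seen. The part of these cell types in the class I values was not tested either.

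**Figure D5:**
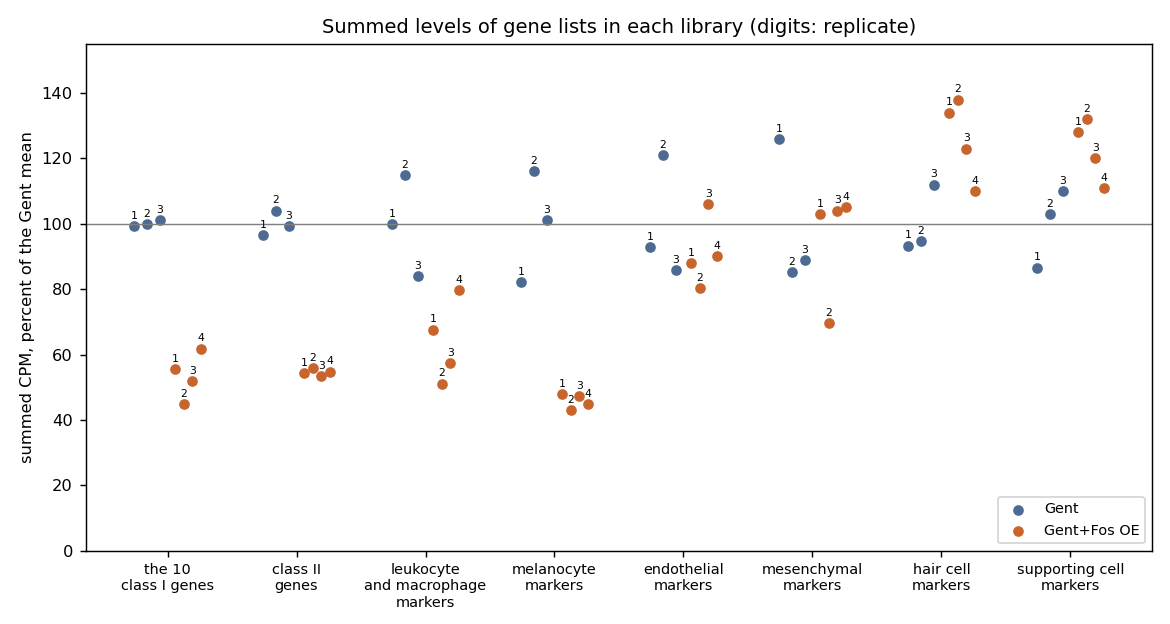
Summed CPM of gene lists in each library as percent of the Gent mean (y axis, from 0), with replicate numbers at the points. The 10 class I genes (44.8 to 61.8 in Gent+Fos OE), class II genes, leukocyte and melanocyte markers lie below Gent in all Gent+Fos OE libraries, and the endothelial and mesenchymal markers overlap.

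Lastly, genes whose profile over the 7 libraries was most like the mean of the 10 were ranked by the root mean square difference in log2 CPM, each gene centred on its own mean. The nearest was Ube2l6 (0.0522, 35.8 CPM on average, log2 fold change -0.98), followed by Dhx58 (0.0833, -1.05), Lgals3bp (0.0957, -1.04), Parp10 (0.0984, -0.92) and Snx20 (0.113, -1.05). Cd69 (0.115), Ifi211 (0.121), Npy1r (0.122), Irgm1 (0.122) and Sp140 (0.124) came next. Their lower values in Gent+Fos OE follow from this ranking and have no test here.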

How the data were processed

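RNA was sequenced from 4 Gent+Fos OE and 3 Gent libraries. The authors deposited raw counts of reads on each gene, without normalization. The submitters' processing notes name Trim Galore 0.6.10, HISAT2 2.2.1, featureCounts 2.0.6, DESeq2 1.34.0 and mm10. Per the file headers, each mate of a read pair was counted by itself, the strand was ignored, and reads mapping to several places or genes were left out. The methods name mm39 and 3 replicates per condition, which differs from the headers and the labels, and all 7 libraries were used. Replicates are pools of utricles, so p-values measure the spread between pools.

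Symbols were matched by Ensembl ID to GENCODE vM39 (31674 of 32285 genes). The exons of 7892 genes overlap another gene. Genes were filtered with filterByExpr (17155 kept), normalized by TMM and compared in edgeR 4.0.16 by the quasi-likelihood F-test without covariates, p-values being adjusted after Benjamini and Hochberg, in R 4.3.3 (limma 3.58.1, DESeq2 1.42.0). Tables and figures were made with matplotlib 3.10.9 and pandas 2.3.3 under Python 3.11.15. The fits were tested on simulated data. The 10 genes, the lists and the rule for named genes were chosen with earlier results of these data known. Named genes are the 10, Fos, genes passing 0.05 or among the 3 of highest level in the 4 lists of the route, 12 genes set by name, and the 10 nearest profiles with a mean of at least 1 CPM. Profiles used log2(CPM + 0.5). Of 222 list genes 8 were not in the annotation, and 1 further gene is not reported here. Alternatives were other tools, normalizations and filters, halved counts, a replicate block, removal of the trend with gene length (loess span 0.3) and leaving out each library. Library totals of 27879889 to 34335214 counts set the counting error, which is smaller than the spread between libraries: pairs of replicates differed at a chi-square per degree of freedom of 18 to 150.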

Additional observations from a re-analysis of the deposited data

Results flagged for a closer look

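In 39 values checked in the 4 Gent+Fos OE libraries, 1 had a library far from the others, where chance gives about 1 in 20. Fos was at 167 CPM in replicate 3 and at 149 to 151 CPM in the others, a gap of 0.873 of the range, over Dixon's limit for 4 samples.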

How the results depend on the processing

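In all 17 alternative fits the 10 genes kept negative log2 fold changes (170 values), a direction that their selection fixes. For 14 further genes (Tapbp, Psmb10, Psme1, Psme2, Psmb5, Psmb6, Psmb7, Nlrc5, Irf1, Irf7, H2-Q6, H2-T22, Ciita and Cd74) none of 238 values turned its sign. Other named genes with small folds did turn, among them Stat3 (-0.12 to 0.18), Pdia3 (-0.09 to 0.02) and Psme3 (-0.09 to 0.06). Of the 10, only the 3 called in the main fit could lose a call at the 0.01 limit, in 17 fits each. They lost it in 19 of these values, and the others gained a call in 11. DESeq2 called 327 genes lower and 273 higher, 8 of the 10 and 8 other antigen presentation genes. Without a filter on low counts these were 141, 63, 6 and 3, and with the gene length trend removed 95 lower, 35 higher and 2 other antigen presentation genes. Without single libraries, 3 to 93 genes were called lower and 2 to 45 higher, 0 to 5 of the 10 at 0.01, 3 to 9 of them at 0.05, and 1 to 3 other antigen presentation genes. The replicate numbers are not stated to pair the libraries, and same-numbered libraries did not deviate together (correlations of 0.09, -0.06 and 0.06). With a replicate block, 0 genes were called lower and 0 higher, 0 of the 10 at 0.01 and 1 at 0.05, 0 other antigen presentation genes, and Fos was at 2.03 (edgeR adjusted p = 0.0296). With the replicate block and the gene length correction, 31 genes were called lower and 1 of the 10. The block leaves fewer residual degrees of freedom, with or without the length correction, and the causes of all these shifts were not tested. Among the 10 genes, depth limits H2-Q7 and Psmb9 most, at 59 to 162 counts in Gent+Fos OE.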
